A study of Mus musculus with 6 samples.

Results

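Rab GTPases are small membrane-bound switches that direct vesicle traffic, and their transcripts were followed here through 3 cell populations of the basophil lineage sorted from mouse bone marrow. The members were all genes whose mouse symbol is Rab followed by a number and an optional letter, which took in 59 of 24532 gene IDs. The cells came from C57BL/6J mice, and each population was profiled by RNA sequencing as biological duplicates, which gave 6 libraries. BaP, labelled a basophil precursor, was sorted as negative for lineage markers and c-Kit and positive for CD34 and for MAR1, an antibody that recognises the IgE-binding chain of the high-affinity receptor on basophils. MAR1HI and MAR1INT were sorted as negative for lineage markers, CD34 and c-Kit and positive for CD200R3, with high and with intermediate MAR1 binding. No treatment or genetic change is given in the labels, and they do not say how many animals went into a library.

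A Rab protein cycles between a GDP-bound form held in the cytosol and a GTP-bound form on a membrane, where it recruits the effectors that move, tether or fuse vesicles. Exchange factors load GTP, GTPase activators switch the protein off, and prenyl groups added by a transferase anchor it in the membrane. Most Rabs serve routes that every cell uses, between the endoplasmic reticulum, Golgi, endosomes and lysosomes. A smaller set, in which Rab27 and Rab3 proteins are the best known, serves the release of stored granules, the process by which basophils and mast cells discharge histamine after IgE receptors are cross-linked. Others, such as Rab32 and Rab38, carry cargo to lysosome-related organelles.

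By these roles the 59 members comprised 9 of regulated secretion, 4 of lysosome-related organelles, 12 of the endoplasmic reticulum and Golgi, 9 of the early endosome, 8 of the recycling endosome, 5 of the route from Golgi to plasma membrane, 5 of the late endosome and lysosome and 7 others. Levels are the authors' TPM (a share of all transcripts in the library, scaled for transcript length). A gene was tested if it reached a TPM of 1 in at least 2 libraries, which 43 members did. Differences are log2 changes of TPM + 1 from limma with Benjamini-Hochberg adjustment over 11337 genes, the threshold for a call was an adjusted p under 0.05, and on this scale low genes show smaller log2 changes than their TPM ratio. The libraries are biological duplicates, so the p-values speak of the spread between 2 samples per group. That spread is pooled over the 3 groups and, by limma, over genes. An exact permutation test of 2 against 2 libraries cannot go below a p of 0.333.

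The tables implied between 4.75 and 5.28 gigabases of aligned sequence per library, and all 13 basophil markers checked were listed above 0 in every library, with summed levels between 14222 and 23830 TPM. The basophil marker sum was lowest in the MAR1INT libraries (17047 and 14222 TPM). Of the 13 markers, 5 were called higher and 5 lower in MAR1INT than in BaP, 4 and 0 in MAR1HI than in BaP, and 2 and 4 in MAR1INT than in MAR1HI. The shares of all tested genes called higher and lower were 11.1% and 20.4%, 1.83% and 0.662%, and 2.29% and 14.5% in the same order. The share of TPM in 95 histone genes was 15.4% and 17.8% for the BaP libraries, 18.7% and 12.1% for MAR1HI and 8.29% and 7.88% for MAR1INT. The SD between duplicates over all tested genes was 0.42 (log2) for BaP, 0.43 for MAR1HI and 0.67 for MAR1INT. The fit used 1 spread per gene for all 3 groups. Comparisons with MAR1INT therefore rest on a smaller spread than its duplicates show over all tested genes, and MAR1HI minus BaP on a larger one. The MAR1HI duplicates differed in level: 40 of 43 Rab genes were higher in replicate 2 than in replicate 1, by a median of 0.46 (log2), beside a median of 0.41 over all tested genes. In BaP 26 of the 43 were higher in replicate 2 and in MAR1INT 15, with medians of 0.07 and -0.12.

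Rab44 had the highest TPM of all Rab genes in all 6 libraries. Rab8a and Rab2a, a Rab of transport from the Golgi to the cell surface and one of traffic between the endoplasmic reticulum and Golgi, were among the highest 4 in every library. Of the 59 members, 28 reached a TPM of 10 in all 6 libraries and 15 reached a TPM of 1 in none. Rab3b, Rab3c and Rab9b were listed at 0 in all 6. The summed Rab level was 1643 and 1592 TPM in BaP, at 1916 and 2477 in MAR1HI and at 2656 and 2311 in MAR1INT, so both MAR1INT libraries lay above both BaP libraries while MAR1HI overlapped MAR1INT.

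To show the sequence just upstream of members that rose, the 250 bases before the annotated start are given for 4 of them, as RefSeq holds them (build GRCm38.p6). They are 1 Rab of regulated secretion, 1 of the recycling endosome and 2 of the Golgi that were called in MAR1INT against BaP and had an entry in the table used. Of the 2 starts listed for Rab27a, the first is shown. Each runs 5′ to 3′ on the gene's own strand and ends at the last base before that start. Capitals mark matches on either strand to TGTGGT (the core bound by RUNX proteins) and GGGCGG (a GC box), and no marked matches overlapped. Another pair of motifs searched, AGATAA (bound by GATA factors) and CACGTG (an E-box), had no match in these stretches. Rab21 and Rab8a were also called higher and had an entry but are not shown. CACGTG did match in Rab21 and before the second Rab27a start. The Rab27a stretch is chr9:73044560-73044809 (plus strand), Rab11a is chr9:64737757-64738006 (minus strand), Rab19 is chr6:39381103-39381352 (plus strand) and Rab6b is chr9:103111824-103112073 (plus strand).
Rab27a: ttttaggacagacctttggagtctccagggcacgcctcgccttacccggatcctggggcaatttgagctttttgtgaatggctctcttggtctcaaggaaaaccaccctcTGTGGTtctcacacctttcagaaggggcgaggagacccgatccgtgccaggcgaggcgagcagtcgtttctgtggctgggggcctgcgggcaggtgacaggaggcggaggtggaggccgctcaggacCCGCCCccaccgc
Rab11a: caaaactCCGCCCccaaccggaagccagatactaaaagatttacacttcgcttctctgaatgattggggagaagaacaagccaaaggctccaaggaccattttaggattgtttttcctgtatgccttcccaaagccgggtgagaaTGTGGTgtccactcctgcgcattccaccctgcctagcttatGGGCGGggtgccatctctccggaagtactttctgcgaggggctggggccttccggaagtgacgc
Rab19: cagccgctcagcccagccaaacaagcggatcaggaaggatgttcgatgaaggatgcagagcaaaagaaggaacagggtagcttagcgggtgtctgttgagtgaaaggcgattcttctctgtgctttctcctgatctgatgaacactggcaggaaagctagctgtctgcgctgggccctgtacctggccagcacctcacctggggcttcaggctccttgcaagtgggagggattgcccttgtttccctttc
Rab6b: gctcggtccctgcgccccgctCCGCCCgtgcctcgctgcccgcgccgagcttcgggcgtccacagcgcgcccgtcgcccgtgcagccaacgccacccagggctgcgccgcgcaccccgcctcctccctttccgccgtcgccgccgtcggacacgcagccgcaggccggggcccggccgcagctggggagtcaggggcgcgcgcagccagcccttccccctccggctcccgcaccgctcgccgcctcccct
Rab27a and Rab11a each held TGTGGT and at least 1 GC box, Rab6b held 1 GC box in a stretch of 80.8% G and C, and Rab19 held no match. Over 32851 RefSeq promoters searched the same way, 14.0% held TGTGGT, 32.7% GGGCGG, 6.02% CACGTG and 9.99% AGATAA. Among 17 upstream stretches of the 13 described members that had an entry, 5 held TGTGGT, 9 GGGCGG, 2 CACGTG and 0 AGATAA. A match describes letters only and does not show that a factor binds there.

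Most Rab calls lay between MAR1INT and BaP. Of 43 tested members, 9 were called higher (Rab4a, Rab6b, Rab8a, Rab11a, Rab19, Rab21, Rab27a, Rab37 and Rab44) and 2 lower (Rab13 and Rab38) in MAR1INT, or 25.6% of members, against 31.5% of all tested genes called. In the transcriptome as a whole most calls went the other way: 11.1% of all tested genes were called higher and 20.4% lower. The median Rab change was 0.36 (log2) where that of all tested genes was -0.16, and 33 of 43 members were above 0 where 43.5% of all tested genes were. Both MAR1INT libraries lay above both BaP libraries for 24 members (55.8%, against 29.7% of all tested genes) and below for 5 (11.6%, against 39.1%). In bulk samples, fewer cells of a type and less RNA per cell cannot be told apart, here and below. The MAR1INT libraries also had a lower histone share than the BaP libraries. With TPM rescaled without histone genes the members called were again 9 higher and 2 lower. The Rab median was then 0.23, beside -0.29 for all tested genes. The part of the histone share in the Rab values was not tested.

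The split of the calls depended on the scaling and on single libraries. With quantile normalization 15 members were called higher and 1 lower. FPKM gave 7 and 2, and median-of-ratios scaling gave 13 and 2. The background moved too: of all genes called, 35.3% were higher in the TPM fit, 55.1% with quantile normalization, 28.7% with FPKM and 41.3% with median-of-ratios scaling, so with quantile normalization most calls in the transcriptome were also higher. The median of all tested genes then stood at -0.32 (FPKM), 0.11 (quantile) and -0.17 (median of ratios), and the Rab median was above it each time, at 0.14, 0.45 and 0.35. Fewer Rab genes were called higher without either BaP library or without MAR1INT replicate 1, and so were fewer of all tested genes. More were called lower without MAR1INT replicate 2 and fewer without BaP replicate 2, as over all tested genes. In these fits the Rab median was 0.22 to 0.57, beside -0.18 to -0.11 for all tested genes.

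Between MAR1HI and BaP, Rab11a was called higher and Rab38 lower, which is 4.65% of tested members against 2.49% of all tested genes (1.83% called higher and 0.662% lower). In this comparison 38 of 43 members were above 0 (67.3% of all tested genes), with a median of 0.37 beside 0.24 for all genes. With the higher MAR1HI library alone (without replicate 1) these medians were 0.67 and 0.43, and without replicate 2 they were 0.26 and 0.04. Leaving out a single BaP or MAR1HI library ended both calls, and calls over all tested genes became fewer too. The Rab11a change was then 0.95 to 1.45 and the Rab38 change -2.86 to -1.84. Without either MAR1INT library, Rab calls and calls over all tested genes both became more numerous. At an unadjusted p under 0.05 there were 8 of 43 members. The share of all tested genes at that threshold is not given here, so this count has no background beside it.

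Between MAR1INT and MAR1HI, Rab44 and Rab6b were called higher and Rab38 lower, 6.98% of members against 16.8% of all tested genes (2.29% called higher and 14.5% lower). The Rab median was -0.08 where that of all tested genes was -0.36, and 17 of 43 members were above 0 where 30.2% of all genes were. Quantile normalization called 3 members higher and 0 lower and put the Rab median at 0.26 beside 0.11 for all genes, and median-of-ratios scaling called 5 and 1. Without either MAR1HI library the Rab calls were lost, and calls over all tested genes became fewer too. The Rab median was -0.30 without MAR1HI replicate 1 and 0.10 without replicate 2, beside -0.56 and -0.15 for all tested genes. Rab calls and calls over all tested genes both became fewer without either BaP library and more numerous without either MAR1INT library. Over the 3 groups, limma's F test called 8 members (Rab4a, Rab6b, Rab11a, Rab13, Rab19, Rab27a, Rab38 and Rab44) where it called 26.6% of all tested genes; that count was 3 without BaP replicate 1 and 1 without BaP replicate 2.

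**Figure D1:**
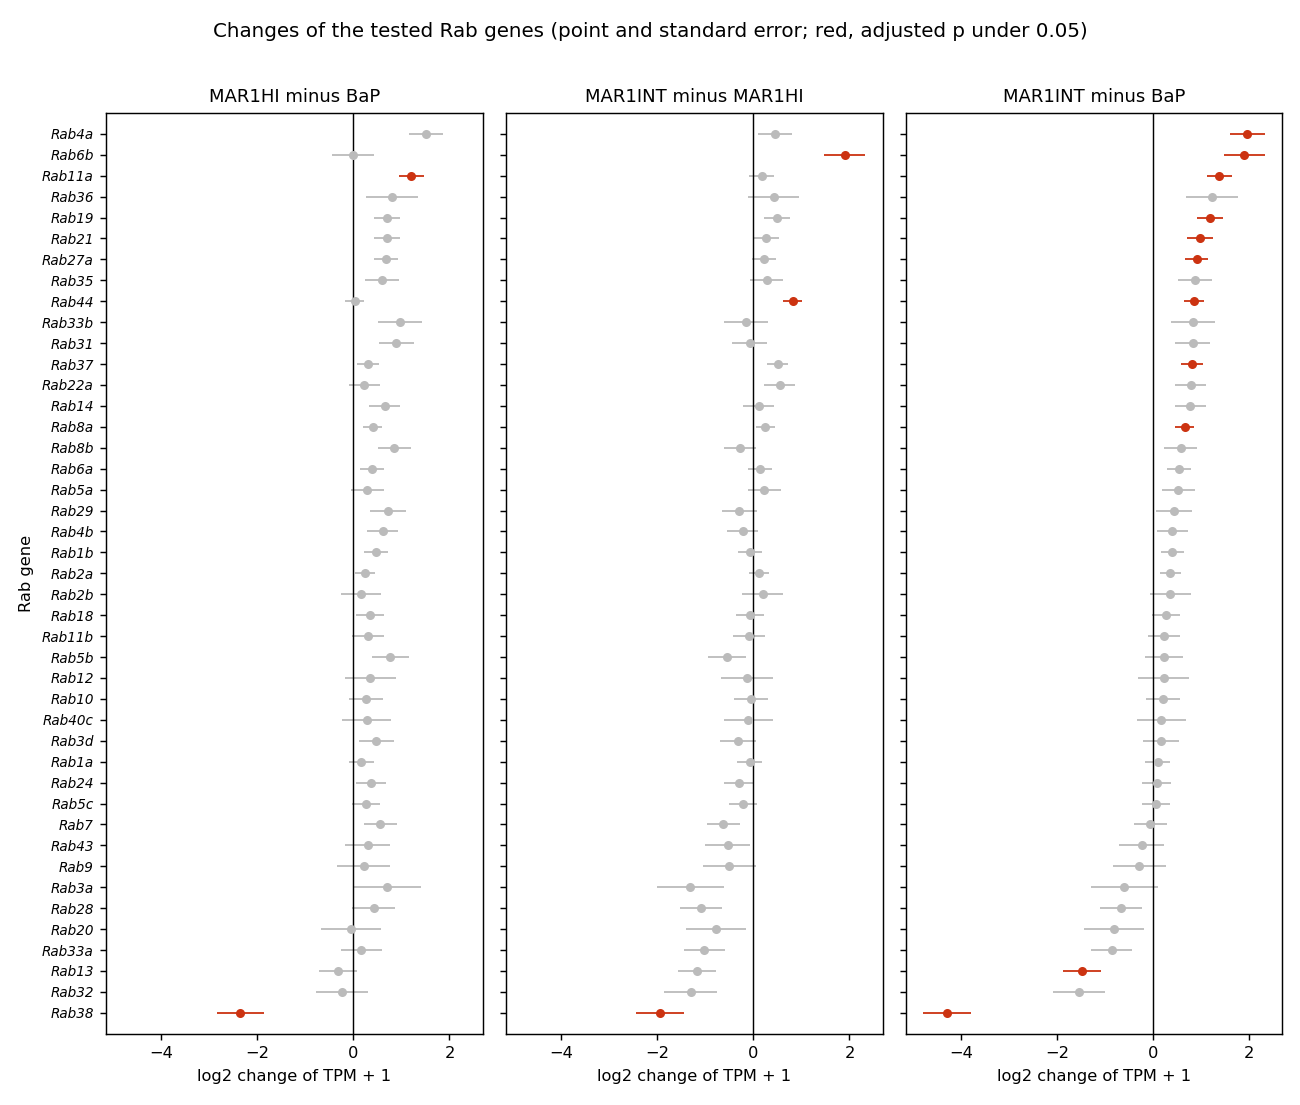
Log2 change of TPM + 1 (x axis, same range in each panel) for the 43 tested Rab genes (y axis, ordered by MAR1INT minus BaP) in the 3 comparisons. Points are limma estimates, bars are standard errors and red marks an adjusted p under 0.05. In MAR1INT minus BaP, 9 red points lie to the right of 0 and 2 to the left.

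Of the 5 tested Rabs of regulated secretion, 3 were called higher in MAR1INT than in BaP and none lower, beside 11.1% and 20.4% of all tested genes. Rab44 (gene 442827, mm10 chromosome 17, 29135056 to 29148976), an unusually large Rab that in mouse mast cells takes part in IgE-dependent degranulation, stood at 212 and 246 TPM in BaP, at 212 and 256 in MAR1HI and at 419 and 403 in MAR1INT. The BaP and MAR1HI values overlapped and both MAR1INT values lay above them. It rose in MAR1INT against BaP (log2 change 0.85 ± 0.20 SE, adjusted p = 0.0116, 1.80-fold in mean TPM) and against MAR1HI (0.81 ± 0.20, adjusted p = 0.0238). Leaving out BaP replicate 1 (adjusted p = 0.103) or the trend (0.0649) ended the first call. The second ended without a trend (0.105), with no filter (0.0673) and without any 1 of the 6 libraries, with adjusted p-values from 0.0503 (without BaP replicate 1) to 0.0889 (without MAR1HI replicate 1).

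Rab37 (gene 58222, chromosome 11, 115091431 to 115162240), a Rab found on mast cell secretory granules, stood at 115 and 93.4 TPM in BaP, at 128 and 127 in MAR1HI and at 202 and 163 in MAR1INT. The groups did not overlap. Its change between BaP and MAR1INT was 0.81 ± 0.22 (adjusted p = 0.0234). That call was lost with FPKM (adjusted p = 0.0533), without a trend (0.0801), without BaP replicate 1 (0.0705), without BaP replicate 2 (0.169) and without MAR1INT replicate 1 (0.158).

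Rab27a (gene 11891, chromosome 9, 73044810 to 73097614) docks secretory granules at the plasma membrane and is the gene mutated in ashen mice. It stood at 57.4 and 52.5 TPM in BaP, at 76.3 and 103 in MAR1HI and at 109 and 98.6 in MAR1INT. Both BaP libraries were the lowest, and MAR1HI overlapped MAR1INT. Rab27a rose in MAR1INT against BaP by 0.90 ± 0.25 (adjusted p = 0.0217, 1.88-fold in mean TPM), and the call was lost without BaP replicate 1 (0.101), BaP replicate 2 (0.136) or MAR1INT replicate 1 (0.0781) and in a fit without a trend (0.0604). Its close relative Rab27b, which serves granule release in mast cells, was not tested, as it exceeded a TPM of 1 in 1 library: it stood at 0.433 and 0.266 TPM in BaP, at 0.964 and 1.48 in MAR1HI and at 0.784 and 0 in MAR1INT.

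The Rab3 proteins act on synaptic vesicles and on exocrine and mast cell granules, and their genes stood below Rab44, Rab37 and Rab27a in every library. Rab3d (gene 19340, chromosome 9, 21907492 to 21918183) stood at 10 and 11.6 TPM in BaP, at 13.1 and 18.1 in MAR1HI and at 11.8 and 12.5 in MAR1INT. Rab3a (gene 19339, chromosome 8, 70754679 to 70758686) stood at 4.07 and 0.737 TPM in BaP, at 3.84 and 3.85 in MAR1HI and at 0 and 2.83 in MAR1INT. Neither gene was called in any comparison, and for Rab3a the duplicates of BaP and of MAR1INT differed more than the groups did. Rab26, another secretory vesicle Rab, did not exceed 0.482 TPM.

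**Figure D2:**
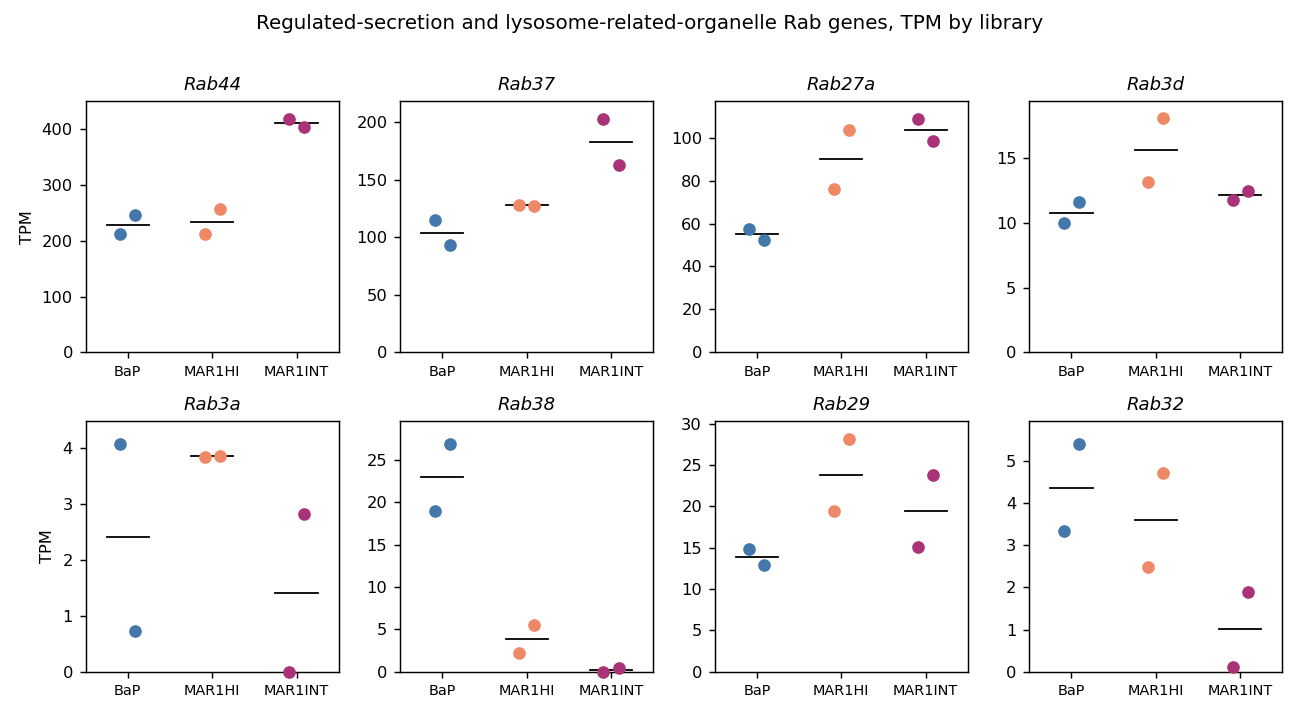
TPM (y axis, linear from 0, its range differing between panels) of 5 Rab genes of regulated secretion and 3 of lysosome-related organelles in the 3 populations (x axis). Each point is a library and each line a group mean. Rab44 is at 403 TPM or more in MAR1INT and at 256 or less elsewhere, and Rab38 is at 0.457 or less in MAR1INT.

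Among the 3 tested Rabs of lysosome-related organelles, Rab38 was called lower in all 3 comparisons, and no other member was. Of all tested genes, 0.662% were called lower in MAR1HI and 20.4% in MAR1INT than in BaP, and 14.5% in MAR1INT than in MAR1HI. Rab38 (gene 72433, chromosome 7, 88430273 to 88491572), which directs pigment enzymes to melanosomes and is mutated in chocolate mice, stood at 19.0 and 26.9 TPM in BaP, at 2.25 and 5.58 in MAR1HI and at 0 and 0.457 in MAR1INT. The 3 groups did not overlap. The change was -2.35 ± 0.50 (adjusted p = 0.0431) from BaP to MAR1HI, -1.94 ± 0.50 (adjusted p = 0.0276) from MAR1HI to MAR1INT and -4.29 ± 0.50 (adjusted p = 0.000356) from BaP to MAR1INT. The last call held in all 17 alternative settings (adjusted p up to 0.0151). The first was lost without BaP replicate 1 (0.210), BaP replicate 2 (0.273), MAR1HI replicate 1 (0.141) or MAR1HI replicate 2 (0.267), with a pseudocount of 0.1 (0.248), with no filter (0.194) and without a trend (0.0630). The second was lost without BaP replicate 1 (0.0568), BaP replicate 2 (0.0553), MAR1HI replicate 1 (0.0654) or MAR1HI replicate 2 (0.195), with a pseudocount of 5 (0.0944), with no filter (0.136) and with quantile normalization (0.193).

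Markers of several other cell types were also lower in both CD34-negative groups than in BaP, although not all of them fell again from MAR1HI to MAR1INT as Rab38 did. Summed over 13 monocyte and macrophage markers, the level was 319 and 376 TPM in BaP and between 100.5 and 133 in the other libraries, with 5 of 12 tested markers called lower in MAR1HI and 10 of 12 in MAR1INT than in BaP, and 1 higher and 0 lower in MAR1INT than in MAR1HI. The 10 dendritic cell markers summed to 1023 and 402 TPM in BaP and 30.5 to 102 in the others (4 of 8 and 6 of 8 tested markers lower, and 4 of 8 lower in MAR1INT than in MAR1HI), with Xcr1 at 0 in all MAR1HI and MAR1INT libraries. The 9 eosinophil markers summed to 2166 and 1152 TPM in BaP and 109 to 349 elsewhere (4 of 8 lower and 1 higher in MAR1HI, 5 lower and 2 higher in MAR1INT, and 2 higher and 0 lower in MAR1INT than in MAR1HI), with Ear6 at 0 in all MAR1HI and MAR1INT libraries. The 8 listed mast cell markers summed to 45.1 and 42.6 TPM in BaP, at 4.08 and 4.89 in MAR1HI and at 0.0446 and 0.449 in MAR1INT, with Tpsab1 and Mcpt1 at 0 in all 6 libraries. Neutrophil markers summed to 6406 and 11790 TPM in BaP and 3677 to 5217 elsewhere (2 of 14 lower in MAR1HI and 6 of 14 in MAR1INT, and 3 lower and 0 higher in MAR1INT than in MAR1HI). Erythroid markers did not follow that order, at 1547 and 2315 TPM in BaP, at 1195 and 599 in MAR1HI and at 2787 and 1266 in MAR1INT (0 of 9 and 1 of 9 lower), and B and T cell markers summed to 14.3 to 36.5 TPM. Beside these marker counts, 0.662% of all tested genes were called lower and 1.83% higher in MAR1HI than in BaP. The shares were 20.4% and 11.1% in MAR1INT against BaP, and 14.5% and 2.29% in MAR1INT against MAR1HI. The part of cells of these types in the Rab38 result, and in that of Rab13 below, was not tested.

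Rab32 (gene 67844, chromosome 10, 10545039 to 10558207), the relative that shares Rab38's route, stood at 3.33 and 5.40 TPM in BaP, at 2.49 and 4.71 in MAR1HI and at 0.125 and 1.89 in MAR1INT. Both MAR1INT values were the lowest. The difference from BaP was not called (-1.54 ± 0.55, adjusted p = 0.0587), and it was called without MAR1INT replicate 2 (-2.23, adjusted p = 0.000368), with FPKM (0.0401) and with the replicate number as a block (0.0289). Rab29 (gene 226422, chromosome 1, 131867277 to 131872889), a Rab of the trans-Golgi and lysosomes, was the most abundant of the 4 in the CD34-negative groups. It stood at 14.9 and 12.9 TPM in BaP, at 19.5 and 28.1 in MAR1HI and at 15.1 and 23.8 in MAR1INT, with MAR1INT overlapping MAR1HI and no call. Rab7b was listed at 0.772 and 0.222 TPM in BaP and at 0 in the other 4 libraries.

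Members outside regulated secretion and lysosome-related organelles numbered 46, the 7 of other roles included. Of these 35 were tested, with 6 called higher and 1 lower in MAR1INT against BaP, beside 11.1% and 20.4% of all tested genes. The median change of these 35 members was 0.36, beside 0.81 over the 5 tested secretion members. These counts and medians are a description of lists of unequal size, and the difference between them was not tested. In summed level, regulated secretion Rabs stood at 402 ± 4.14 TPM (SD, n = 2) in BaP, at 473 ± 53.7 in MAR1HI and at 711 ± 44.0 in MAR1INT, or 24.8%, 21.6% and 28.7% of all Rab TPM. Rab44 and Rab37 made up most of that sum in each library. The share in MAR1INT (27.9% and 29.4%) lay above that in BaP (24.3% and 25.4%), and the share in MAR1HI (22.7% and 20.6%) lay below both.

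**Figure D3:**
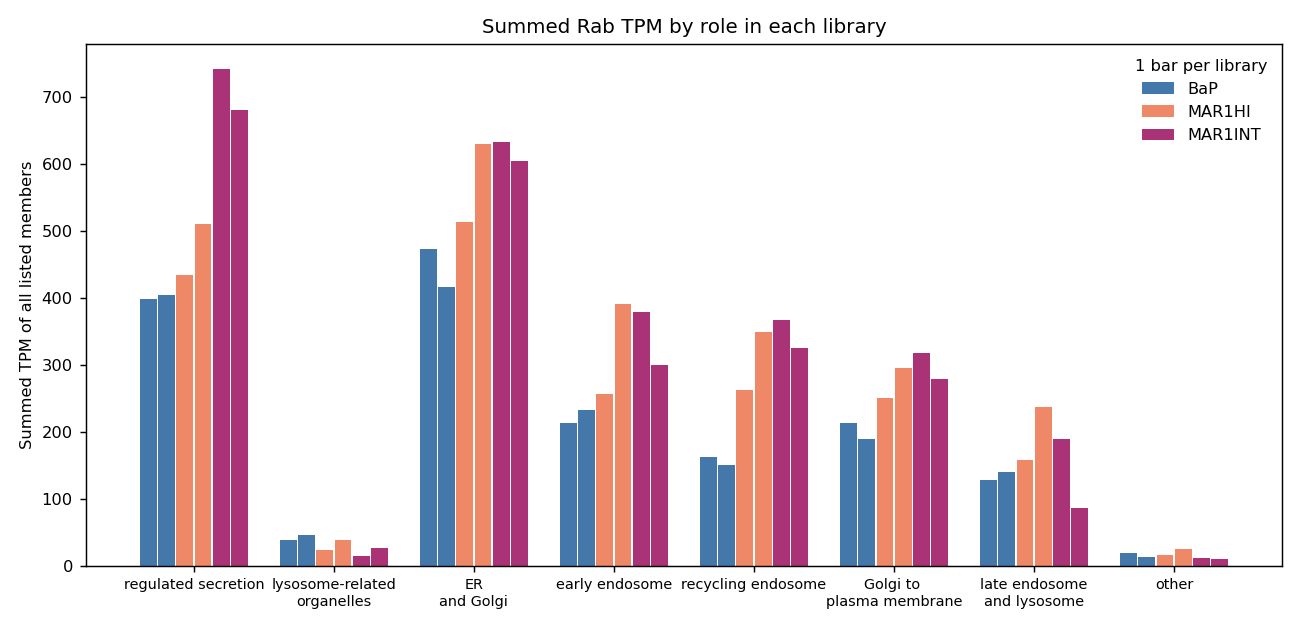
Summed TPM (y axis, linear from 0) of the Rab genes of each role (x axis) with 1 bar per library, coloured by population. Regulated secretion is at 742 and 680 TPM in MAR1INT and at 399 and 405 in BaP, and recycling endosome Rabs are lowest in both BaP libraries.

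Recycling endosome Rabs had the largest ratio of summed level between MAR1INT and BaP among the 8 roles, at 2.22, from 156 ± 8.45 TPM in BaP to 306 ± 61.8 in MAR1HI and 346 ± 29.8 in MAR1INT. Rab4a (gene 19341, chromosome 8, 123805996 to 123835291), which returns receptors from early endosomes to the surface, stood at 44.4 and 18.9 TPM in BaP, at 80.9 and 88.7 in MAR1HI and at 120.1 and 112 in MAR1INT. The 3 groups did not overlap, although the BaP duplicates differed by more than either other pair. It rose in MAR1INT against BaP by 1.96 ± 0.36 (adjusted p = 0.00346), a call kept in all 17 alternative settings (adjusted p up to 0.0406). From BaP to MAR1HI the difference was not called (1.51 ± 0.36, adjusted p = 0.0645), and it was called without MAR1INT replicate 1 (0.000124) or replicate 2 (0.000137), with a pseudocount of 5 (0.0389), with a mean TPM of 5 or more (0.0326) and with only those groups fitted (0.000190).

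Rab11a (gene 53869, chromosome 9, 64715300 to 64737756), the Rab of the slower recycling compartment, stood at 37.0 and 36.8 TPM in BaP, at 72.3 and 103 in MAR1HI and at 102 and 93.4 in MAR1INT. Both BaP libraries were lowest and the CD34-negative groups overlapped. Rab11a rose by 1.20 ± 0.26 in MAR1HI (adjusted p = 0.0459) and by 1.38 ± 0.26 in MAR1INT (adjusted p = 0.00381, 2.64-fold in mean TPM) against BaP. The MAR1INT call held in all 17 settings (adjusted p up to 0.0406). For MAR1HI it was lost in 8: without BaP replicate 1 (0.288), BaP replicate 2 (0.262), MAR1HI replicate 1 (0.0909) or MAR1HI replicate 2 (0.298), with the replicate number as a block (0.0720), with a pseudocount of 0.1 (0.0790), with no filter (0.130) and without a trend (0.138). The paralog Rab11b was at a lower level, at 15.3 and 15.8 TPM in BaP, at 17.3 and 22.0 in MAR1HI and at 18.7 and 18 in MAR1INT, with no call.

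Of the 11 tested Rabs of the endoplasmic reticulum and Golgi, 2 were called, both higher in MAR1INT than in BaP. That comparison called 11.1% of all tested genes higher and 20.4% lower. Rab2a, the member with the highest mean, was not called. Rab19 (gene 19331, chromosome 6, 39381428 to 39390379), a Golgi-associated Rab, stood at 53.6 and 42.6 TPM in BaP, at 64.8 and 93.5 in MAR1HI and at 103 and 116 in MAR1INT, with no overlap between groups. It rose by 1.18 ± 0.27 (adjusted p = 0.00985, 2.28-fold in mean TPM) between BaP and MAR1INT, and the call was lost without BaP replicate 2 (0.0939). Rab6b (gene 270192, chromosome 9, 103112074 to 103185270), a relative of Rab6a known from neurons, where it works in transport at the Golgi, stood at 2.02 and 1.95 TPM in BaP, at 2.73 and 1.36 in MAR1HI and at 9.80 and 10.4 in MAR1INT. BaP and MAR1HI overlapped, and both MAR1INT libraries stood well above them.

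The Rab6b rise was 1.89 ± 0.43 (adjusted p = 0.00975, 5.09-fold in mean TPM) against BaP and 1.90 ± 0.43 (adjusted p = 0.0173) against MAR1HI. The call against BaP was lost without BaP replicate 1 (0.0764) or replicate 2 (0.0749) and with no filter (0.0512). That against MAR1HI was lost without MAR1HI replicate 1 (0.0552) or replicate 2 (0.121), with no filter (0.0882) and with only those groups fitted (0.0530). Rab6a, the broadly expressed relative, stood far above it at 51.9 to 90.5 TPM over the 6 libraries and was not called. Rab2a (gene 59021, chromosome 4, 8535644 to 8607702) had the highest mean in this role, at 171 and 135 TPM in BaP, at 167 and 192 in MAR1HI and at 185 and 204 in MAR1INT, with neighbouring groups overlapping and no call.

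**Figure D4:**
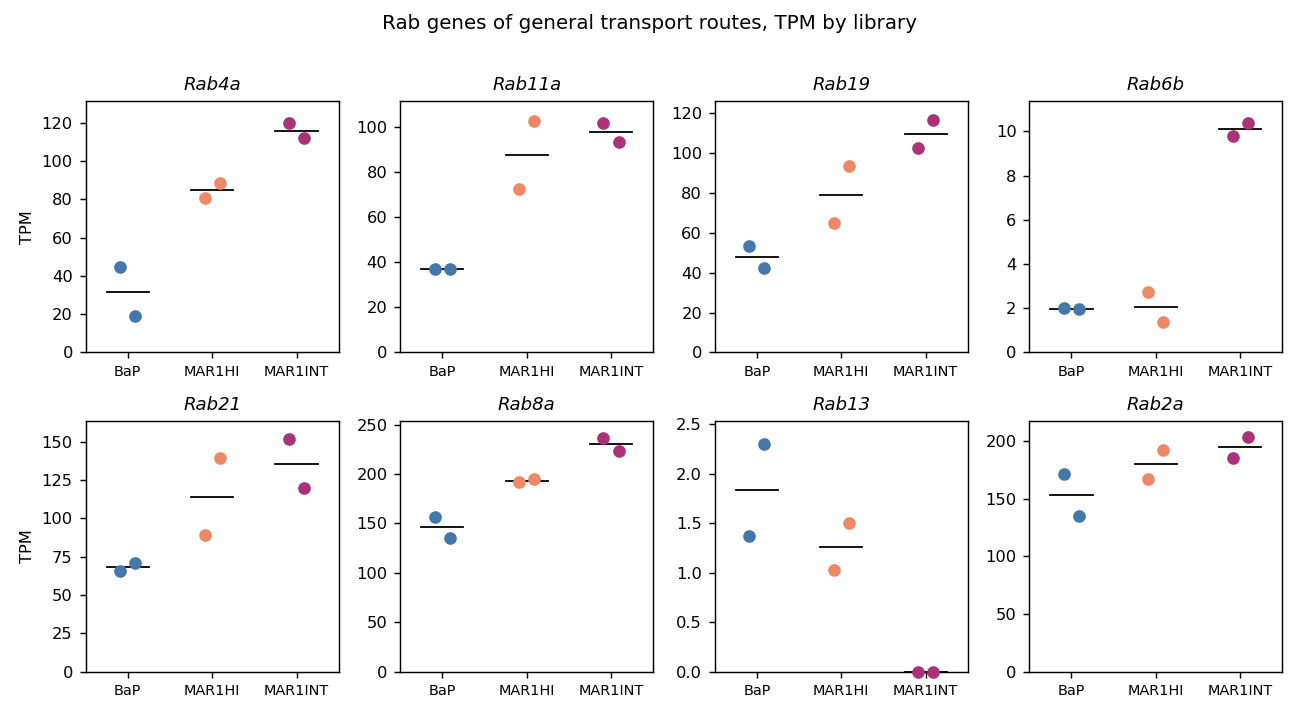
TPM (y axis, linear from 0, its range differing between panels) of 8 Rab genes of general transport routes in the 3 populations (x axis). Each point is a library and each line a group mean. Rab4a, Rab11a, Rab19, Rab21 and Rab8a are lowest in both BaP libraries, Rab6b is at 9.80 TPM or more only in MAR1INT, and Rab13 is listed at 0 in MAR1INT.

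Of the 8 tested early endosome Rabs, Rab21 was called, higher in MAR1INT than in BaP, where 11.1% of all tested genes were called higher. Rab21 (gene 216344, chromosome 10, 115289862 to 115315591), which guides the uptake of integrins, stood at 65.6 and 70.6 TPM in BaP, at 89.0 and 139 in MAR1HI and at 152 and 119 in MAR1INT, so BaP was lowest and the other groups overlapped. It rose by 0.97 ± 0.27 (adjusted p = 0.0232) from BaP to MAR1INT, a call lost without BaP replicate 1 (0.142), BaP replicate 2 (0.103) or MAR1INT replicate 1 (0.0823), with no filter (0.0775) and without a trend (0.0672). Rab5a, Rab5b and Rab5c, the Rabs that define the early endosome, ranged from 13.3 to 66.2 TPM over the 6 libraries and none was called.

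On the route from the Golgi to the plasma membrane, 1 of 5 tested Rabs was called higher and 1 lower in MAR1INT against BaP. Those shares were 11.1% and 20.4% over all tested genes. Rab8a (gene 17274, chromosome 8, 72161200 to 72181366) stood at 157 and 136 TPM in BaP, at 192 and 195 in MAR1HI and at 237 and 223 in MAR1INT, without overlap. Its change from BaP to MAR1INT was 0.65 ± 0.20 (adjusted p = 0.0328), the smallest of the called Rab changes. The call was lost with FPKM (0.0876), without a trend (0.119), with the replicate number as a block (0.0624) and without BaP replicate 1 (0.0976), BaP replicate 2 (0.197), MAR1INT replicate 1 (0.168) or MAR1INT replicate 2 (0.106).

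Rab13 (gene 68328, chromosome 3, 90213715 to 90226387), known for traffic to epithelial tight junctions, was near the limit of the filter: 1.37 and 2.30 TPM in BaP, 1.02 and 1.50 in MAR1HI, and 0 in both MAR1INT libraries. BaP overlapped MAR1HI, and MAR1INT lay below both. It fell by 1.48 ± 0.39 on the log2 scale between BaP and MAR1INT (adjusted p = 0.0194), which was lost with quantile normalization (0.374) and without BaP replicate 2 (0.0760).

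No Rab of the late endosome and lysosome and none of the other roles was called in any comparison. Rab7 (gene 19349, chromosome 6, 87999106 to 88045270), which controls fusion of late endosomes with lysosomes, stood at 109 and 122 TPM in BaP, at 143 and 203 in MAR1HI and at 159 and 76.7 in MAR1INT. The MAR1INT duplicates spanned the BaP values. Rab28 (gene 100972, chromosome 5, 41624973 to 41708179), a Rab of cilia, had the highest mean of the other roles, at 14.3 and 8.68 TPM in BaP, at 11.9 and 19.5 in MAR1HI and at 5.40 and 8.06 in MAR1INT.

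None of the 11 called members shared more than 3.84% of its exon bases with another annotated gene. Among uncalled members, the values of Rab43 (75.3% of exon bases shared with a neighbouring gene model), Rab4b (65.0%), Rab24 (62.4%, with Prelid1 on the opposite strand) and Rab2b (59.3%, opposite strand) are uncertain, because whether counting used the strand is not given in the sources used here.

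The partners of Rab proteins were followed in a list of 112 genes, of which 92 were tested: 21 were called higher and 6 lower in MAR1INT than in BaP, 3 and 0 in MAR1HI than in BaP, and 3 and 2 in MAR1INT than in MAR1HI. Of all tested genes these comparisons called 11.1% higher and 20.4% lower, 1.83% and 0.662%, and 2.29% and 14.5%. Without BaP replicate 1 or replicate 2 the first pair was 7 and 3 or 11 and 2, the second was 13 and 1 without either MAR1INT library, 1 higher without either BaP library and 0 without either MAR1HI library. The third was 0 and 1 without MAR1HI replicate 1, 1 and 0 without MAR1HI replicate 2, and had 1 lower without either BaP library. Effectors held the most, with 9 of 30 tested genes higher and 1 lower in MAR1INT than in BaP. Those higher were Sytl1, Sytl2, Sytl3, Unc13d, Rab11fip4, Ankrd27, Ehbp1l1, Mical1 and Plekhm1, of which the Sytl genes and Unc13d encode proteins that bind Rab27 on granules.

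Sytl3 (gene 83672), a synaptotagmin-like protein that binds Rab27, stood at 41.2 and 50.7 TPM in BaP, at 236 and 293 in MAR1HI and at 612 and 638 in MAR1INT. It rose at each step without overlap, by 2.50 ± 0.21 (adjusted p = 0.000937) from BaP to MAR1HI, 1.25 ± 0.21 (adjusted p = 0.00487) from MAR1HI to MAR1INT and 3.74 ± 0.21 (adjusted p = 1.71e-05) from BaP to MAR1INT. Its highest TPM exceeded that of every Rab gene. The BaP to MAR1HI call was lost without MAR1HI replicate 1 (0.0677) or replicate 2 (0.130) or with no filter (0.0659), and the next step without MAR1HI replicate 1 (0.0518).

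Sytl2 (gene 83671), another Rab27 effector, followed the same order at 8.30 and 5.04 TPM in BaP, at 34.4 and 36.3 in MAR1HI and at 76.7 and 83.8 in MAR1INT. It rose by 3.44 ± 0.32 (adjusted p = 0.000149) between BaP and MAR1INT, in all 17 settings. Rab11fip4 (gene 268451), an effector of Rab11, stood at 2.35 and 3.80, 10.6 and 12, and 27.2 and 20.8 TPM in the same order of groups, a rise of 2.63 ± 0.40 (adjusted p = 0.00138) from BaP to MAR1INT. Osbpl1a, an effector of Rab7, fell by 1.43 ± 0.43 (adjusted p = 0.0328), and lost the call without any 1 library other than MAR1INT replicate 1 (0.0544 to 0.207), with no filter (0.103), with quantile normalization (0.183) and with only those groups fitted (0.0547).

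Of 28 tested GTPase activators, 7 were called higher and 2 lower in MAR1INT than in BaP. Tbc1d4 (gene 210789), an activator for Rabs of surface delivery such as Rab8 and Rab10, stood at 20.2 and 24.8 TPM in BaP, at 45.2 and 73.0 in MAR1HI and at 101 and 87.4 in MAR1INT (2.02 ± 0.30, adjusted p = 0.00121). Tbc1d10c (gene 108995), known from lymphocytes, stood at 72.1 and 93.6, 160 and 210.1, and 327 and 233 TPM (1.73 ± 0.26, adjusted p = 0.00120). Both rose without overlap between groups and kept the call in all 17 settings. Evi5 rose by 1.46 ± 0.44 (adjusted p = 0.0313, lost without BaP replicate 1 at 0.200, BaP replicate 2 at 0.139 or MAR1INT replicate 2 at 0.0614, or with no filter at 0.0905). Usp6nl, an activator for Rab5, fell by 1.77 ± 0.39 (adjusted p = 0.00862, lost without BaP replicate 1 at 0.120 or replicate 2 at 0.0619). Sgsm3 fell by 1.86 ± 0.51 (adjusted p = 0.0213, lost without BaP replicate 2 at 0.125 or, at 0.0519 and 0.0514, without either MAR1HI library). That call was also lost with a pseudocount of 0.1 (0.0555), no filter (0.0918), quantile normalization (0.157) and only those groups fitted (0.0517).

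Among 27 tested exchange factors 4 were called higher and 3 lower. Madd, which loads Rab3 and Rab27, rose by 1.49 ± 0.31 (adjusted p = 0.00619) from 36.4 and 57.1 TPM in BaP to 133 and 128 in MAR1INT. Dennd1c, an exchange factor of the DENN family, rose by 1.46 ± 0.31 (adjusted p = 0.00655) and Rin3, which acts on the Rab5 family, by 1.11 ± 0.23 (adjusted p = 0.00607). These 3 calls were lost without BaP replicate 1 (0.0736, 0.0772 and 0.0710).

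Rin2 fell by 1.97 ± 0.46 (adjusted p = 0.0107, lost without BaP replicate 2 at 0.0573 or with quantile normalization at 0.128) and Rab3il1 fell by 1.69 ± 0.44 (adjusted p = 0.0178, lost without BaP replicate 1 at 0.0854 or with quantile normalization at 0.271), both from BaP levels of 5.03 TPM or less.

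**Figure D5:**
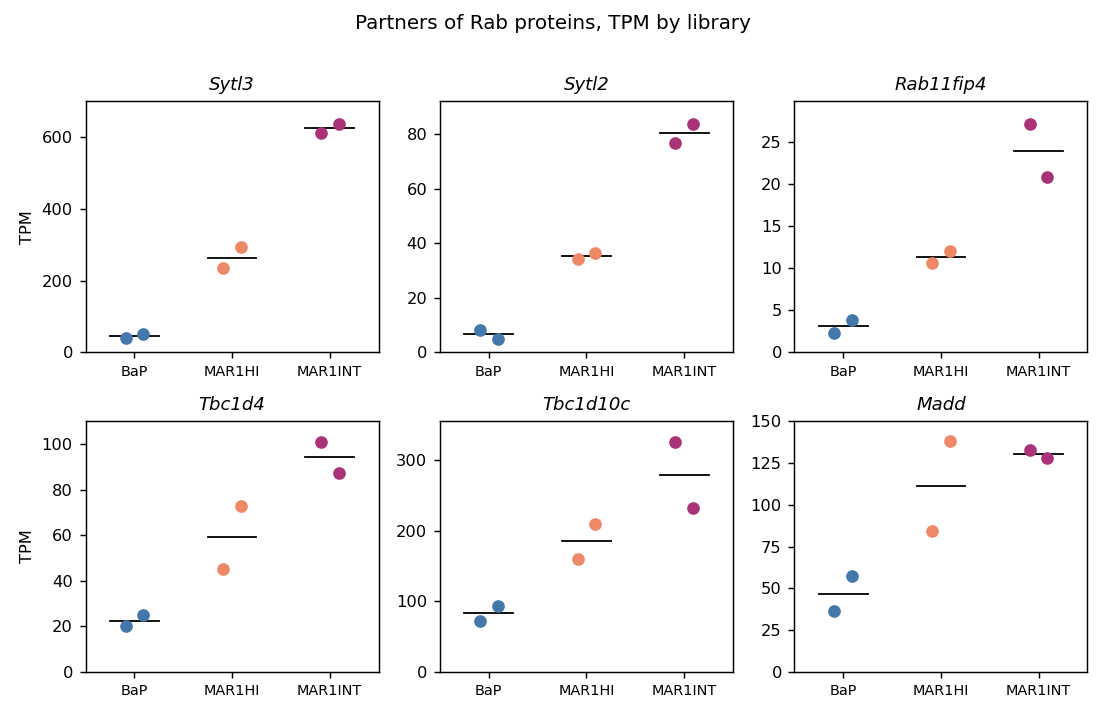
TPM (y axis, linear from 0, its range differing between panels) of 6 genes encoding partners of Rab proteins in the 3 populations (x axis). Each point is a library and each line a group mean. Sytl3, Sytl2, Rab11fip4, Tbc1d4 and Tbc1d10c step up from BaP through MAR1HI to MAR1INT, and Madd is lowest in both BaP libraries.

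In the list of prenylation and membrane extraction, Gdi2, which removes GDP-bound Rabs from membranes, had the highest mean, at 279 to 339 TPM over the 6 libraries, and was not called.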

How the data were processed

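Per the labels, TRIzol LS was used for extraction and a capture-based RNA kit for the libraries. Per the submitters' processing notes, the tools were Trimmomatic, HISAT2 and StringTie and the build mm10; versions, annotation release, strandedness and the handling of reads that map to several places are not given in the sources used here. Per the file headers, the deposited tables hold coverage (a signal, the mean depth per base), FPKM and TPM for each gene. The authors' TPM summed to 1000000 in each library. No read counts were used, so counting error is unknown, and aligned bases were derived from the ratio of FPKM to coverage. Of 24532 gene IDs 24462 were paired with a symbol through a RefSeq gene table.

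Values were analysed as log2(TPM + 1), where TPM reached 1 in at least 2 of the 6 libraries, using limma 3.58.1 in R 4.3.3, where eBayes was run with a trend. With 1 term per group, residual degrees of freedom were 3 and prior ones 6.39 (median). Tests were two-sided with Benjamini-Hochberg adjustment over all 11337 genes. The code was tested on simulated data. Tables and figures were made with numpy 2.4.6, pandas 2.3.3 and matplotlib 3.10.9 under Python 3.11.15. The members, role lists, partner lists, markers and alternatives were chosen with earlier results of these data known. Values by library are given for secretion and lysosome-related-organelle Rabs that reached a TPM of 1, for every called Rab, and for the Rab with the highest mean of each other role; of each partner list, for up to 3 called genes per direction with the largest change and the gene with the highest mean. Rab26, Rab7b, Rab6a, Rab11b and the Rab5 genes were added for comparison after their values were seen. Protein sequences were not used here, and some called partner genes are not reported here by name. The 17 alternatives were other pseudocounts (0.1, 5), filters, scalings, FPKM, a fit without trend or with 2 groups, a replicate block and leaving out each library; the rescaling without 95 histone genes was added after the data were seen.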

Additional observations from a re-analysis of the deposited data

How the results depend on the processing

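Of 37 named gene changes none reversed under any of the 17 alternatives. Nearly all of these were called in the main fit, so a stable sign was likely from the start. Some uncalled changes of named Rab genes did switch sign between scalings. In MAR1HI minus BaP these were Rab2a, Rab6b and Rab44. They were Rab2a, Rab3d and Rab29 in MAR1INT minus MAR1HI, and Rab3a and Rab3d in MAR1INT minus BaP. The Rab11a, Rab4a and Rab38 changes between BaP and MAR1INT kept their calls throughout. Leaving out a library leaves 1 sample in its group, which is then assumed to vary like the other groups. The number of calls over all tested genes changed in these fits as well. With 2 libraries per group, precision rests on pooling over groups and, by limma, over genes. The depth in reads is unknown, and low genes such as Rab13 and Rab3a are limited by it. Without a filter on low values the F test called 2 Rab genes and without a trend 5; leaving out libraries gave 1 to 10.

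For MAR1HI minus BaP, the number of Rab genes called higher (1) was 0 with a pseudocount of 0.1, with no filter and with no trend, and 2 with a pseudocount of 5, with a mean TPM of 5 or more and with only the 2 groups fitted; leaving out libraries gave 0 to 2. The number lower (1) was 0 with a pseudocount of 0.1, with no filter and with no trend, and 0 to 1 without single libraries. The Rab median ranged from 0.26 to 0.67 without single libraries.

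For MAR1INT minus MAR1HI, the number higher (2) was 0 with no filter, 1 with a mean TPM of 5 or more, with 2 groups and with no trend, and 5 with median-of-ratios scaling; without single libraries it was 0 to 1. The number lower (1) was 2 with a pseudocount of 0.1, without histone genes and with no trend, and 0 with a pseudocount of 5, with no filter and with quantile normalization, and 0 to 4 without single libraries. The median was 0.26 with quantile normalization and -0.30 to 0.11 without single libraries.

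For MAR1INT minus BaP, the number higher (9) was 15 with quantile normalization and 4 with no trend, and 3 to 12 without single libraries. The number lower (2) was 1 with a mean TPM of 5 or more and with quantile normalization, and 1 to 5 without single libraries. The cause of these differences was not tested.

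The ratio of summed TPM between MAR1INT and BaP was 1.77 for regulated secretion (1.50 with FPKM, 1.61 without histone genes), 1.39 for endoplasmic reticulum and Golgi (1.18, 1.26), 2.22 for the recycling endosome (1.88, 2.02) and 1.49 for Golgi to plasma membrane (1.26, 1.35). With FPKM it was 1.29 for the early endosome (1.52 in TPM) and 0.60 for the other roles (0.71 in TPM).

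Of the Rab partners, the number higher in MAR1HI than BaP (3) was 5 with a pseudocount of 5 and with FPKM, 0 with no filter, 7 with a mean TPM of 5 or more, 6 with quantile normalization and 12 with 2 groups, and the number lower (0) was 1 with a pseudocount of 5 and with 2 groups; without single libraries they were 0 to 13 and 0 to 1. Between MAR1INT and MAR1HI the number higher (3) was 7 with FPKM, 15 with median-of-ratios scaling and 14 with quantile normalization, and the number lower (2) was 4 with FPKM and 1 with no filter, a mean TPM of 5 or more, quantile normalization and 2 groups; without single libraries they were 0 to 3 each. Between MAR1INT and BaP the number higher (21) was 35 with median-of-ratios scaling and 37 with quantile normalization. The number lower (6) was 2 with a mean TPM of 5 or more and 10 (median-of-ratios). Both numbers also moved without single libraries. Calls over all tested genes moved too. In MAR1INT minus BaP, 1263 genes were called higher in the main fit, 1803 with median-of-ratios scaling and 2302 with quantile normalization. For MAR1INT minus MAR1HI these were 260, 807 and 786, and 379 with FPKM. For MAR1HI minus BaP the main fit called 207 genes higher, a mean TPM of 5 or more 283, FPKM 194, quantile normalization 235 and 2 groups 718.

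The correlation of the replicate differences across genes was 0.154 between BaP and MAR1HI, -0.0922 between BaP and MAR1INT and -0.0593 between MAR1HI and MAR1INT. With 1 such difference per group, these values cannot decide whether the replicate numbers pair the samples. With the replicate number as a block, Rab genes called higher and lower were 0 and 1 in MAR1HI minus BaP, 2 and 1 in MAR1INT minus MAR1HI and 8 and 3 in MAR1INT minus BaP.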
